A study of Homo sapiens with 12 samples.

Results

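Protein kinase A (PKA), the kinase that cyclic AMP (cAMP) switches on, is built from subunits encoded by the 6 genes described here. PRKAR1A, PRKAR1B, PRKAR2A and PRKAR2B encode the regulatory subunits RIα, RIβ, RIIα and RIIβ, and PRKACA and PRKACB encode the catalytic subunits Cα and Cβ. The genes were taken by symbol from a table of 28256 gene symbols, and they held 34 of its 70507 transcript rows. For each symbol the transcript row with the highest total over the 12 libraries was used, so that rows were chosen by this total, which is no result. The set itself was named with earlier results of these data known, so its tests are no independent evidence that these genes respond. For PRKAR1A the choice was close to a tie, since the row kept, NM_001276289, had a total of 27249 counts and the next row, NM_001369389, had 27240. Of the 6 genes, 5 passed the filter on low counts, and PRKAR2B did not.

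In the resting holoenzyme the regulatory subunits bind the catalytic subunits and keep them inactive. When cAMP binds the regulatory subunits, the catalytic subunits become active and phosphorylate targets that include the transcription factor CREB. In liver the pathway is best known as the arm of glucagon signalling that raises glucose production, and glucocorticoids are known to strengthen the response of several gluconeogenic genes to cAMP. RIα is also known for keeping the activity of free catalytic subunits low, and loss of 1 PRKAR1A allele underlies Carney complex.

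RNA came from HepG2, a widely used human hepatoma cell line, here labelled WT. Cells spent 24 h in medium with charcoal-stripped serum, which is low in steroid hormones, before 24 h of treatment. There were 4 groups of 3 libraries: cells given both agents (DexKLA, 50 nM dexamethasone with KLA at a labelled 100 ng/µl), dexamethasone alone (Dex, 50 nM), KLA alone (KLA, 100 ng/µl) and vehicle (DMSO, 0.1%). Dexamethasone is a synthetic glucocorticoid. The labels do not spell out KLA and do not say whether the treated cells also received DMSO. Nor do they tell if replicates came from different cultures, so the p-values reflect the library-to-library spread alone, and that spread could be purely technical.

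Summed over genes, the libraries held 4514606 to 11484497 counts in DexKLA, 3642685 to 17782057 in Dex, 15998657 to 20933501 in KLA and 3317740 to 5277463 in DMSO. Every KLA library was deeper than every DMSO library, so that depth and KLA cannot be told apart. The libraries also differed in a trend on transcript length. The rank correlation of transcript length with a gene's deviation from its mean log2 level was −0.13 to 0.39 in DexKLA and −0.53 to 0.14 in Dex. It was −0.53 to −0.15 in KLA and 0.19 to 0.40 in DMSO. In this trend every Dex and KLA library lay below every DMSO library. HOMER2 averaged 29.5 ± 1.22 TMM-normalised CPM, counts scaled to library size, in DexKLA, 26.9 ± 1.67 in Dex, 5.43 ± 0.819 in KLA and 6.96 ± 0.760 in DMSO (SD, n = 3 each). Its rise with Dex in these same data (log2 change 1.93, edgeR quasi-likelihood adjusted p = 3.9e-07 against DMSO) is no independent check that cells responded. The glucocorticoid target FKBP5 averaged 39.3 ± 8.23, 37.6 ± 1.94, 19.3 ± 4.67 and 25.7 ± 3.38 CPM in the same groups. FKBP5 was not called for Dex against DMSO (log2 change 0.55, edgeR adjusted p = 0.0857). It was called for DexKLA against DMSO (0.63, edgeR adjusted p = 0.0423) and against KLA (1.04, edgeR adjusted p = 0.000869). All 8 hepatocyte markers, ALB and HNF4A among them, passed the filter, and their summed level was 118301 to 159950 CPM in DexKLA, 131270 to 137689 in Dex, 122563 to 129515 in KLA and 92256 to 109256 in DMSO. Among leukocyte markers, PTPRC had at most 1 count and CD3E none in any library, while LYZ stood at 3699 to 4829 CPM and CD68 at 43.2 to 55.4 CPM over all libraries. Of the 5 fibroblast markers only PDGFRB was tested (21.0 to 30.6 CPM over all libraries) and COL1A2 was at 0, and of the 4 endothelial markers only PECAM1 was tested (2.53 to 3.88 CPM) and KDR was at 0. The part of these marker differences in the results was not tested.

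PRKAR1A was the only member called in any comparison fitted to all 12 libraries. The row kept lies on chromosome 17, positions 68512379 to 68533429 of hg38, plus strand, with a transcript length of 4421 bases. Its promoter window is printed because the start of the row lies beside a perfect cAMP response element, the CREB-binding sequence TGACGTCA, and the window of the catalytic gene PRKACA is set beside it. Both windows are from RefSeq (GRCh38.p14) and run from 250 bases before the start site to 50 bases from it, on the strand of the gene. The PRKAR1A window is chr17:68512129-68512428 (plus strand), with the full element in capitals. The PRKACA window is chr19:14117713-14118012 (minus strand), with the core TGACG, here read on the other strand as CGTCA, in capitals.
PRKAR1A: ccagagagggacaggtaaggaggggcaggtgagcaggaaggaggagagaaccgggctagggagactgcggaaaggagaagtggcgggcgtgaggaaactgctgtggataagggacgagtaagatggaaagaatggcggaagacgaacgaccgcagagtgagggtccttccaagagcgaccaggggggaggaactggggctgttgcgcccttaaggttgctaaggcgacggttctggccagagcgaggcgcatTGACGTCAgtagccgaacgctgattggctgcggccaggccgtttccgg
PRKACA: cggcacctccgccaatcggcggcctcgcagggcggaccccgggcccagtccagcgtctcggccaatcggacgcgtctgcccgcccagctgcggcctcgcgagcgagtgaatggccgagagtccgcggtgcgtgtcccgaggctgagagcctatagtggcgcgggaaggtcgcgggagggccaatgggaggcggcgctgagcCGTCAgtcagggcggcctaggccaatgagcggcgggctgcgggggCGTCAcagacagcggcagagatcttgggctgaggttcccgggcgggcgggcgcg

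The element in the PRKAR1A window covers bases 253 to 260, which are positions 68512381 to 68512388 of chromosome 17 and bases 3 to 10 of the row kept. In all, 3 motifs were searched on both strands of every RefSeq window: TGACGTCA, its core TGACG, and the palindromic glucocorticoid response element, spelled AGAACA, 3 free bases and TGTTCT. TGACGTCA was found in 649 of 35116 windows (1.848%), which belong to 614 of 27305 genes (2.249%). The 6 members have 20 windows, of which 2 hold TGACGTCA, and both are overlapping windows of PRKAR1A around the same 8 bases. Each TGACGTCA contains 2 overlapping TGACG cores, 1 on each strand, and at least 1 core was found in 9 of the 20 member windows and in 24.55% of all windows. The glucocorticoid element was found in 1 of the 35116 windows and in none of the members' windows. A match is a match of letters, binding was not measured, and the absence of a match says only that these letters are not in the window.

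PRKAR1A mRNA was lower in each of the 3 treated groups than with DMSO. It stood at 234, 219 and 253 CPM in DexKLA replicates 1 to 3, at 253, 219 and 210.5 CPM in Dex, at 212, 199 and 193 CPM in KLA, and at 363, 305 and 361 CPM in DMSO. All 9 treated libraries lay below all 3 DMSO libraries. Taken singly, 13.6% of tested genes lay so with Dex, 18.3% with KLA and 12.8% with DexKLA, and the share for all 9 libraries at once was not computed. The DexKLA and Dex libraries overlapped, and the 3 DexKLA libraries lay above the 3 KLA libraries, as in 8.1% of tested genes. These values rest on 914 to 4128 counts of the row per library. In bulk RNA, a lower level in every cell and a loss of mRNA from some of the cells cannot be told apart.

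Group means of PRKAR1A were 235.5 ± 16.7 CPM in DexKLA, 227.6 ± 22.7 CPM in Dex, 201.2 ± 9.66 CPM in KLA and 342.9 ± 33.1 CPM in DMSO (SD, n = 3 each). With Dex the level fell to 0.663 of that with DMSO (log2 change −0.59 ± 0.11 SE, 95% interval −0.81 to −0.37, edgeR quasi-likelihood adjusted p = 0.00458). It was the only 1 of the 5 tested members called in that comparison, in which 2.05% of the 13166 tested genes were called and 13.6% had 3 Dex libraries below all 3 DMSO libraries. The call ended without Dex replicate 3 (−0.54, adjusted p = 0.0568), and among the 5 libraries of the 2 groups with totals below the median the change was −0.56 (adjusted p = 0.00108).

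With KLA the PRKAR1A level fell to 0.587 of that with DMSO (log2 change −0.77 ± 0.11, 95% interval −0.99 to −0.55, edgeR adjusted p = 0.0011). Again it was the only 1 of the 5 tested members called, where KLA versus DMSO called 13.7% of tested genes and placed all 3 KLA libraries below all 3 DMSO libraries in 18.3% of them. The call held in each of the 12 fits that left out 1 library (adjusted p = 0.000566 to 0.0175). Without DMSO replicate 1, the shallowest library, 5 genes in all were called in this comparison, and PRKAR1A was 1 of them. With depth class (above or below the median library total) as a covariate the change was −0.80 and no longer called (adjusted p = 0.0905).

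With both agents the PRKAR1A level fell to 0.688 of that with DMSO (log2 change −0.54 ± 0.11, 95% interval −0.76 to −0.32, edgeR adjusted p = 0.00896). It was the only 1 of the 5 tested members called, where DexKLA versus DMSO called 4.22% of tested genes and placed 3 DexKLA libraries below all 3 DMSO libraries in 12.8%. The call ended without DMSO replicate 1 (−0.50, adjusted p = 0.0651) and without DexKLA replicate 2 (−0.49, adjusted p = 0.0638). The 3 comparisons with DMSO share the same 3 DMSO libraries, so they are not independent of each other.

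**Figure D1:**
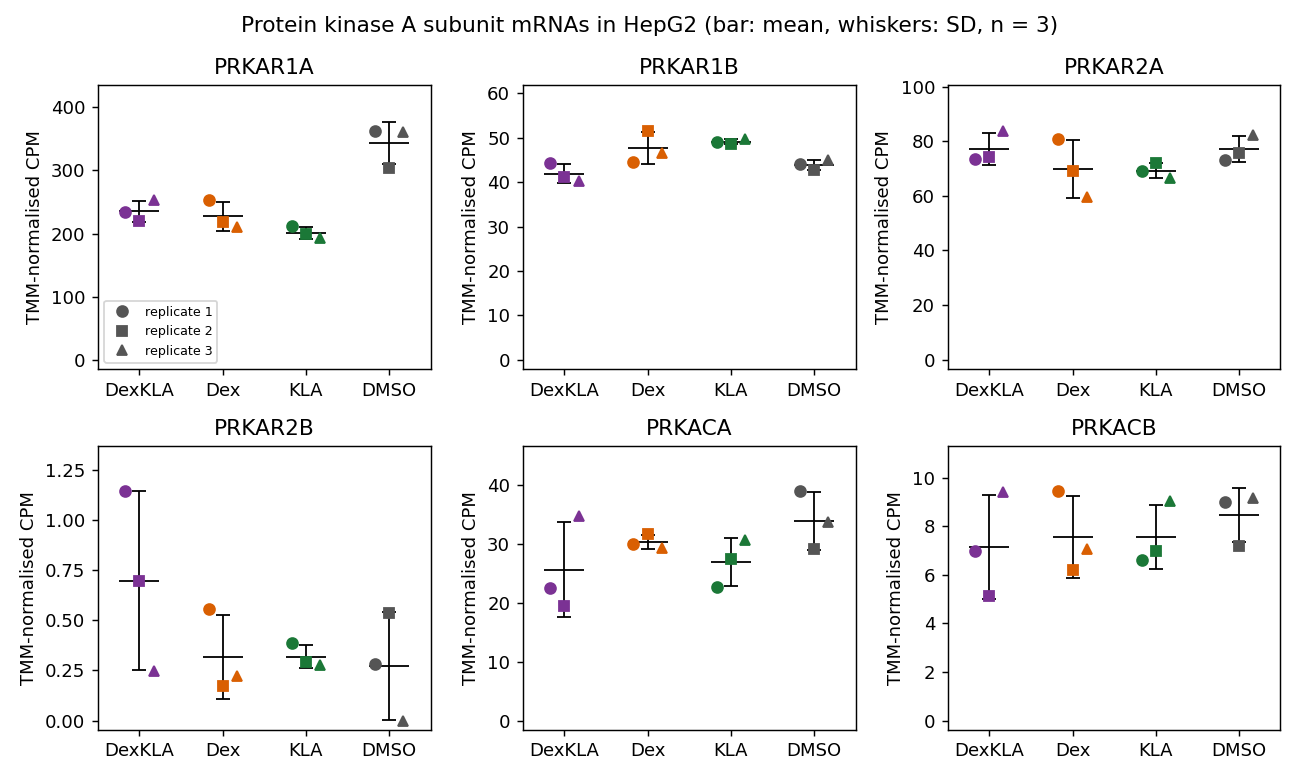
TMM-normalised CPM (y axis, linear) of the 6 PKA subunit genes in each library, by group (x axis), with 1 point per library, a bar for the mean and whiskers for the SD of 3 libraries. The PRKAR1A points of the 9 treated libraries lie between 193 and 253 CPM, below the DMSO points at 305 to 363 CPM, and no other panel shows such a gap.

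In the reported fit, the effects of Dex and KLA on PRKAR1A did not add up on the log2 scale, by a call close to the threshold. In cells without KLA the change with Dex was −0.59, while between DexKLA and KLA, both with KLA, it was 0.23 ± 0.11 (95% interval 0.01 to 0.45, unadjusted p = 0.041, edgeR adjusted p = 0.452). The difference between these changes, the interaction of Dex and KLA, was 0.82 ± 0.15 (95% interval 0.51 to 1.13) and passed the threshold (edgeR adjusted p = 0.0449). The interaction uses the same DMSO libraries as the comparisons with DMSO, so it is not independent of those calls. PRKAR1A was 1 of 5 genes called for the interaction among all tested genes, 0.038%, with CYP24A1, HIPK1, RPPH1 and MYCBP2, and the only 1 of the 5 tested members. Between DexKLA and Dex the level differed by 0.05 ± 0.11 (95% interval −0.17 to 0.27, adjusted p = 0.922).

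The size of the interaction changed little with the processing, but its adjusted p lay close to the threshold. The call ended with DESeq2's size factors (0.81, adjusted p = 0.0561), with the transcript length trend of each library removed (0.69, adjusted p = 0.0982) and with depth class as a covariate (0.84, adjusted p = 0.153), and it held with the DESeq2 test (0.81, adjusted p = 0.000889). It also ended in 7 of the 12 fits that left out 1 library: without DMSO replicate 1 or 3 (both 0.78, adjusted p = 0.108 and 0.117), without Dex replicate 2 (0.79, adjusted p = 0.198) or 3 (0.77, adjusted p = 0.118), without KLA replicate 1 (0.86, adjusted p = 0.0521), and without DexKLA replicate 2 (0.87, adjusted p = 0.0759) or 3 (0.77, adjusted p = 0.162). Since all KLA libraries are of the deeper class and all DMSO libraries of the shallower, no value for the interaction could be had within a depth class.

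**Figure D2:**
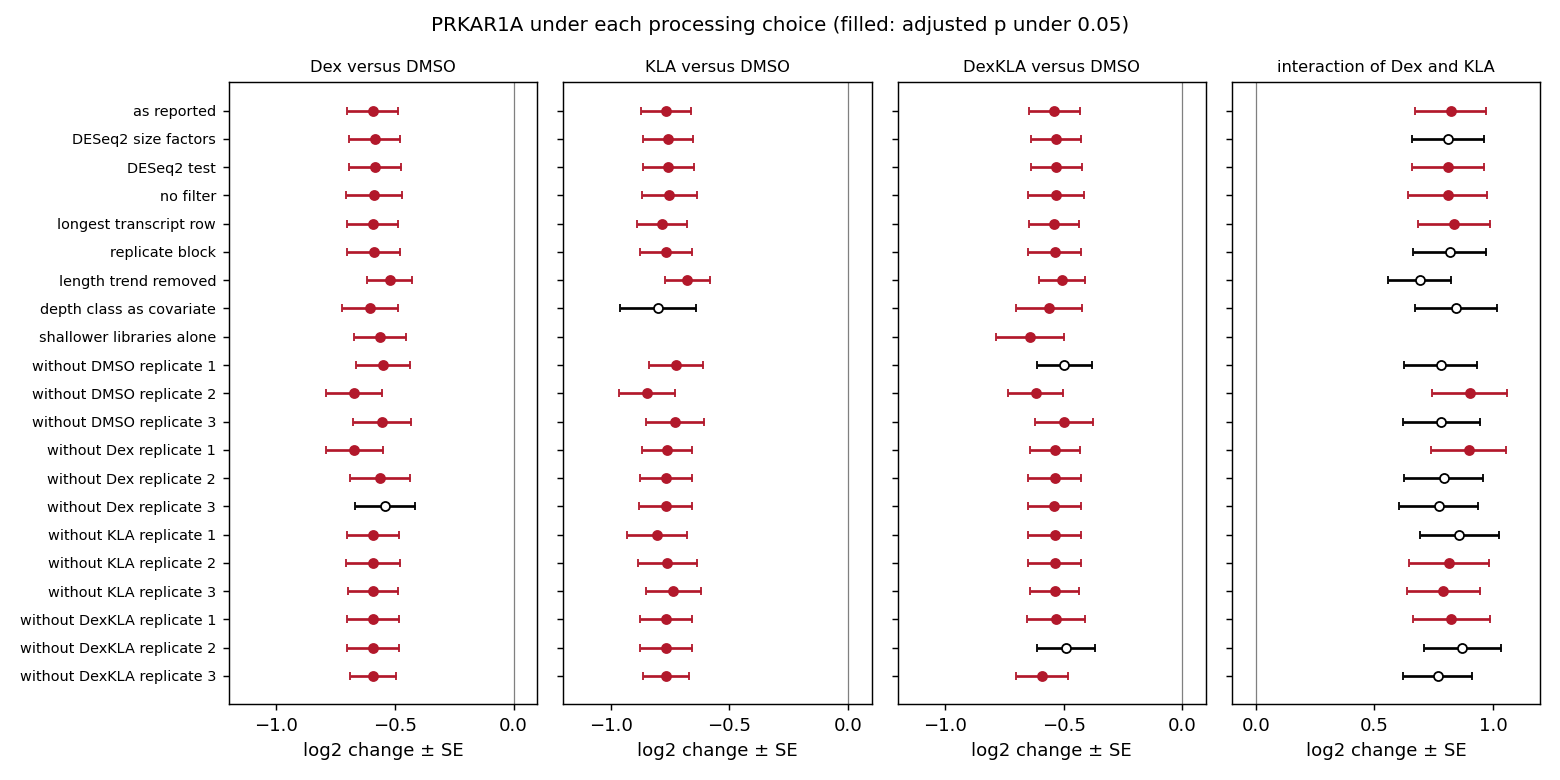
Log2 change of PRKAR1A ± SE (x axis, log2 scale) in the 3 comparisons with DMSO and for the interaction of Dex and KLA (panels), under each processing choice (rows, with the reported fit on top), where filled red points have an adjusted p under 0.05. The changes against DMSO stay between −0.85 and −0.49, and the interaction stays between 0.69 and 0.90 while moving across the threshold.

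The table holds 8 transcript rows of PRKAR1A, and all 8 showed the same pattern. Against DMSO, each of the 8 rows was called lower with Dex (log2 changes −0.74 to −0.58), with KLA (−0.89 to −0.76) and with DexKLA (−0.61 to −0.55), where 2.16%, 13.4% and 3.48% of the 42664 tested transcript rows were called. For the interaction each of the 8 rows was called (0.79 to 1.03, edgeR adjusted p = 0.0458 for all), where 0.891% of all tested rows were. The rows share exons, and the counts of the long rows are near equal, as they would be if the same reads were counted in full in each. The rows are not independent measurements of the gene. The 6 other long rows, NM_001369389, NM_212472, NM_002734, NM_212471, NM_001369390 and NM_001278433, carried 94.98% to 102% of the count of the row kept in every library. They start between position 68413623 and position 68512884, NM_212472 and NM_002734 at the same position as the row kept, and all end at position 68533429. AC007780.1, a processed transcript on the same strand, overlaps the gene, and PRKAR1AP1 is a processed pseudogene of it elsewhere, so reads shared with either cannot be separated.

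The eighth row, NM_001276290, is short, at 1200 bases from position 68515394 to position 68551316. Its last exon, positions 68551084 to 68551319 in the annotation, lies beyond the end of the long rows, and 80.5% of its exon bases are shared with the row kept. It had 82.9, 71.0 and 86.3 CPM per kilobase of transcript in DexKLA replicates 1 to 3, 88.8, 64.8 and 66.1 in Dex, 72.7, 70.9 and 52.5 in KLA, and 135.0, 98.3 and 133 in DMSO. As in the row kept, the 9 treated libraries lay below the 3 DMSO libraries, a separation whose share over all rows was not computed. Its count was 40.8% ± 1.83 of that of the row kept in DexKLA, 38.4% ± 3.32 in Dex, 38.9% ± 5.37 in KLA and 42.5% ± 3.31 in DMSO (SD, n = 3 each), and these ranges overlapped.

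**Figure D3:**
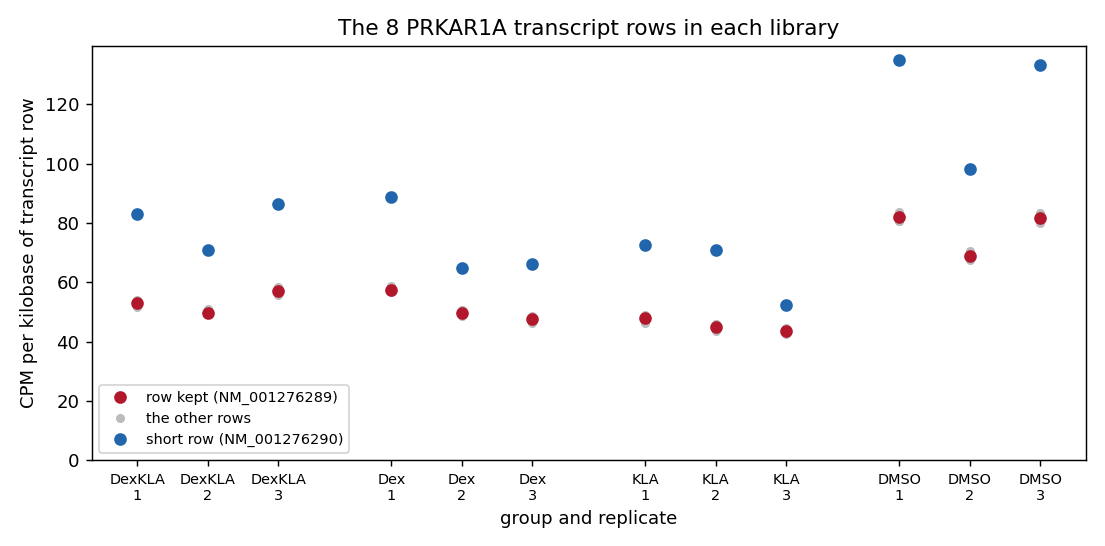
CPM per kilobase of transcript row (y axis, linear) for the 8 PRKAR1A rows in each library (x axis, by group and replicate), with the row kept in red, the short row in blue and the others in grey behind the red points. The row kept lies at 43.6 to 57.3 in the 9 treated libraries and at 68.9 to 82.1 in DMSO, and the short row, which lies higher throughout, is lower in the treated libraries too.

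PRKAR1B encodes RIβ, the RI form best known from the nervous system. Its row kept, NM_001164760, lies on chromosome 7, positions 549198 to 727281, minus strand, and it had 44.3, 41.1 and 40.3 CPM in DexKLA, 44.6, 51.6 and 46.6 CPM in Dex, 49.1, 48.5 and 49.7 CPM in KLA, and 44.2, 42.7 and 45.0 CPM in DMSO. The 3 KLA libraries lay above the 3 DMSO libraries, as in 17.9% of tested genes, and the 3 DexKLA libraries lay below the 3 KLA libraries, as in 7.16%, and below the 3 Dex libraries, as in 6.31%. No comparison called the gene. Its log2 change was 0.13 ± 0.11 with Dex and 0.16 ± 0.11 with KLA against DMSO (edgeR adjusted p = 0.532 and 0.309), −0.07 ± 0.11 with DexKLA against DMSO (adjusted p = 0.762) and −0.23 ± 0.10 with DexKLA against KLA (unadjusted p = 0.0353, adjusted p = 0.438). The interaction was −0.36 ± 0.15 (adjusted p = 0.163), of the opposite sign to that of PRKAR1A. DNAAF5 and the antisense genes AC147651.1 and AC147651.3 overlap PRKAR1B on the other strand, and whether reads were counted by strand is not given in the sources used here.

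PRKAR2A encodes RIIα, which anchoring proteins tether to membranes and organelles. Its row kept, NM_004157, lies on chromosome 3, positions 48746586 to 48847874, minus strand, and it had 73.3, 74.3 and 83.8 CPM in DexKLA, 80.7, 69.0 and 59.4 CPM in Dex, 69.0, 72.0 and 66.4 CPM in KLA, and 73.2, 75.7 and 82.3 CPM in DMSO. The 3 KLA libraries lay below the 3 DMSO libraries, as in 18.3% of tested genes, and the 3 DexKLA libraries above the 3 KLA libraries, as in 8.1%. The log2 changes were all small: −0.15 ± 0.12 with Dex, −0.16 ± 0.11 with KLA and 0.00 ± 0.11 with DexKLA against DMSO, and 0.16 ± 0.11 with DexKLA against KLA (edgeR adjusted p = 0.483, 0.356, 0.989 and 0.611). With DexKLA the 95% interval of the change against DMSO was −0.23 to 0.24. The interaction was 0.31 ± 0.16 (adjusted p = 0.253). PRKAR2A-AS1 overlaps the gene on the other strand.

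PRKAR2B encodes RIIβ, the RII form best known from brain and adipose tissue. Its only row, NM_002736, is annotated at 2 loci, of which the first is on chromosome 7, positions 107044705 to 107161811, plus strand. It had 10, 3 and 3 counts in DexKLA replicates 1 to 3, 2, 3 and 1 counts in Dex, 6, 6 and 5 counts in KLA, and 1, 3 and 0 counts in DMSO after rounding. The highest level was 1.14 CPM, in DexKLA replicate 1, and the 0 in DMSO replicate 3 allows up to 0.655 CPM, counting error only. Differences in PRKAR2B between the groups were not detectable at this depth, and no fold is given.

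PRKACA encodes Cα, the main catalytic subunit of most tissues. Its row kept, NM_002730, lies on chromosome 19, positions 14091695 to 14117762, minus strand, and it had 22.5, 19.5 and 34.7 CPM in DexKLA, 29.9, 31.7 and 29.3 CPM in Dex, 22.7, 27.4 and 30.7 CPM in KLA, and 38.9, 29.1 and 33.6 CPM in DMSO. DexKLA replicate 3 stood apart, above the other two DexKLA libraries and inside the DMSO range, and the groups overlapped in every comparison. Against DMSO, the log2 change was −0.14 ± 0.18 with Dex, −0.32 ± 0.17 with KLA and −0.35 ± 0.18 with DexKLA (edgeR adjusted p = 0.699, 0.207 and 0.253). Without DexKLA replicate 3 the change with DexKLA was −0.66 and called (adjusted p = 0.0157). The 95% interval with all libraries, −0.72 to 0.01, includes that value. With depth class as a covariate the PRKACA changes against DMSO were −0.62 with KLA and −0.58 with DexKLA, neither called (edgeR adjusted p = 0.222 and 0.169). A lower PRKACA level is thus not excluded.

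PRKACB encodes Cβ, a close relative of Cα with many splice forms, of which the table holds 12 rows. The row kept, NM_002731, lies on chromosome 1, positions 84077975 to 84238498, plus strand, and it had 6.97, 5.11 and 9.39 CPM in DexKLA, 9.43, 6.19 and 7.04 CPM in Dex, 6.60, 6.96 and 9.04 CPM in KLA, and 9.01, 7.18 and 9.17 CPM in DMSO. The groups overlapped throughout, at 22 to 162 counts per library. Its log2 changes against DMSO were −0.23 ± 0.24 with Dex, −0.15 ± 0.22 with KLA and −0.16 ± 0.24 with DexKLA (edgeR adjusted p = 0.641, 0.688 and 0.745). At this depth the intervals are wide. With DexKLA (−0.65 to 0.33) and Dex (−0.73 to 0.28) they include the change of PRKAR1A in the same comparison, and with KLA (−0.61 to 0.31) the interval does not. None of the 12 PRKACB rows was called in any comparison. Their log2 changes ran from −1.10 to −0.22 with Dex against DMSO (lowest edgeR adjusted p = 0.182). For the interaction they ran from 0.12 to 1.31 (lowest adjusted p = 0.172). The largest were those of NM_001300915, NM_001300916 and NM_001300917, each with a total of 133.5 counts over all libraries, with equal values in every comparison. The pseudogene AL359504.1 lies within PRKACB.

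Over the 5 tested members the median log2 change was −0.15 with Dex, −0.16 with KLA and −0.16 with DexKLA against DMSO, beside medians of −0.01, −0.02 and −0.02 over all tested genes. By direction, DexKLA versus DMSO called 2.84% of tested genes higher and 1.38% lower. For Dex versus DMSO these shares were 1.22% and 0.835%, and for KLA versus DMSO 7.78% and 5.94%. For the interaction, 0.0304% were called with a positive and 0.0076% with a negative value. In DexKLA versus KLA none of the 5 was called, where 0.653% of tested genes were (0.441% higher, 0.213% lower), and their median was −0.01 beside 0.00 over all genes. In DexKLA versus Dex none of the 5 was called, where 0% of tested genes were, and none had its 3 DexKLA libraries above the 3 Dex libraries, as 6.4% of tested genes did. That comparison called 0 genes with edgeR, with 935 at an unadjusted p under 0.05, and 0 with DESeq2, with 761. The median over the members was 0.05 there, and the lowest adjusted p of a member other than PRKAR1A was 0.716.

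**Figure D4:**
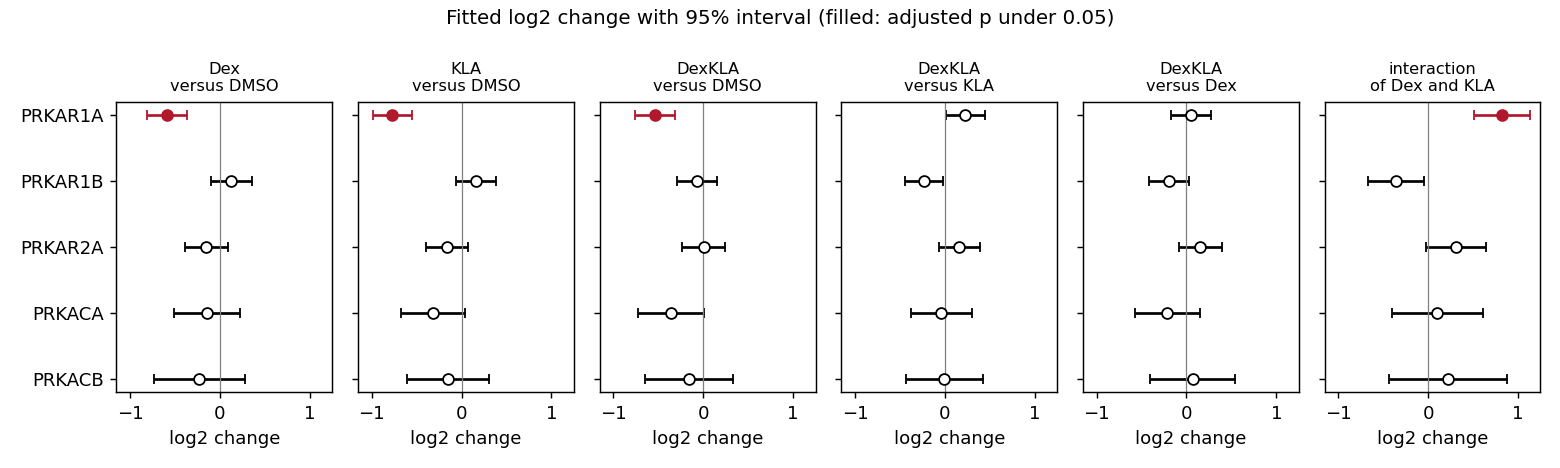
Fitted log2 change (x axis, log2 scale) with its 95% interval for the 5 tested PKA subunit genes (rows) in the 5 comparisons between groups and for the interaction (panels), where filled red points have an adjusted p under 0.05. PRKAR1A is filled in the 3 comparisons with DMSO and for the interaction, and the intervals of the other members include 0 except for PRKAR1B between DexKLA and KLA and for the interaction, where they end short of 0.

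Set per kilobase of transcript, so that genes can be compared, the members spanned levels from under 1 to over 80. PRKAR1A came first in every group, at 53.3 ± 3.79 CPM per kilobase in DexKLA, 51.5 ± 5.14 in Dex, 45.5 ± 2.18 in KLA and 77.6 ± 7.49 in DMSO (SD, n = 3 each). PRKAR1B followed at 16.4 to 21.0 over all 12 libraries. PRKAR2A, at 9.17 to 12.9, and PRKACA, at 7.29 to 14.5, overlapped and held no fixed order. PRKACB, at 1.11 to 2.05, and PRKAR2B, at 0 to 0.366, came last. The row length enters each of these values, and a gene with many reads outside the row kept may be misplaced.

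With PRKAR1A lower and no other regulatory gene called, the makeup of the summed regulatory mRNA shifted. Subunit proteins were not measured. PRKAR1A made up 64.6% ± 1.29 of the summed regulatory level per kilobase in DexKLA, 62.9% ± 2.05 in Dex and 59.7% ± 1.10 in KLA, against 72.1% ± 1.75 in DMSO. PRKAR1B made up 20.7% ± 1.56, 23.8% ± 2.82 and 26.2% ± 0.958 in the same treated groups and 16.7% ± 0.876 in DMSO. PRKAR2A made up 14.4% ± 0.668, 13.1% ± 1.02 and 14.0% ± 0.553 in these treated groups and 11.1% ± 0.897 in DMSO. All 9 treated libraries held a lower PRKAR1A share, 58.8% to 66.0%, than the DMSO libraries, 70.2% to 73.7%. This restates the separation of the PRKAR1A level given above. As the shares are parts of the same sum, a lower PRKAR1A share means a higher share of the others together. The ratio of PRKAR1A to PRKAR1B was 3.13 ± 0.309 in DexKLA, 2.68 ± 0.424 in Dex and 2.28 ± 0.121 in KLA, against 4.33 ± 0.320 in DMSO. The treated libraries, at 2.16 to 3.49, lay below the DMSO libraries, at 3.97 to 4.57. The share of gene pairs separated so was not computed, nor were ratios of PRKAR1A to other single members. PRKAR1B, the denominator, had uncalled log2 changes of 0.13 with Dex, 0.16 with KLA and −0.07 with DexKLA against DMSO, which also enter this ratio. A trend on transcript length can move this ratio, as the rows are 4421 and 2459 bases long. With that trend removed, the log2 changes with KLA were −0.68 for PRKAR1A and 0.11 for PRKAR1B, beside −0.77 and 0.16. These shares and ratios are descriptions of values already tested gene by gene and carry no test of their own.

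The summed regulatory level was 82.4 ± 4.29 CPM per kilobase in DexKLA, 81.7 ± 6.16 in Dex, 76.3 ± 2.26 in KLA and 107 ± 8.06 in DMSO. The summed catalytic level was 11.1 ± 3.47 in DexKLA, 13.0 ± 0.431 in Dex, 11.7 ± 1.76 in KLA and 14.5 ± 2.03 in DMSO. The ratio of the regulatory to the catalytic sum was 7.79 ± 1.82 in DexKLA, 6.30 ± 0.309 in Dex, 6.64 ± 1.22 in KLA and 7.47 ± 0.615 in DMSO. The 3 Dex libraries, at 6.08 to 6.65, lay just below the 3 DMSO libraries, at 6.76 to 7.90, while the DexKLA and KLA libraries overlapped those of DMSO. PRKACA made up 84.5% to 89.8% of the catalytic sum in all 12 libraries.

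**Figure D5:**
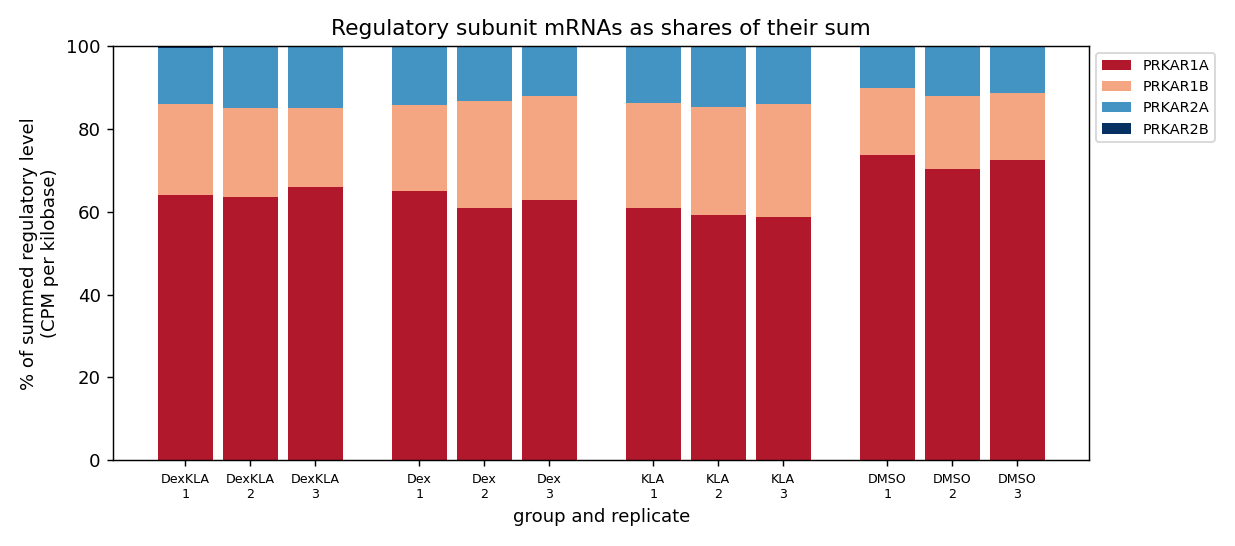
Share (y axis, %) of each regulatory subunit mRNA in the summed regulatory level per kilobase, stacked to 100% for each library (x axis, by group and replicate). The red PRKAR1A share is 58.8% to 66.0% in the 9 treated libraries and 70.2% to 73.7% in the DMSO libraries, the PRKAR1B and PRKAR2A shares are larger in the treated libraries, and PRKAR2B is too rare to see.

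The genes whose levels moved most like PRKAR1A over the 12 libraries were KIF13A, EIF3A and ERAP1. Likeness was the root mean square difference in log2 CPM after each gene was centred on its own mean, and it was 0.0943 for the kinesin gene KIF13A, 0.100 for the translation initiation factor gene EIF3A and 0.120 for the aminopeptidase gene ERAP1. KIF13A averaged 26.2 ± 2.38 CPM in DexKLA, 26.4 ± 1.58 in Dex, 23.3 ± 1.19 in KLA and 35.9 ± 3.16 in DMSO (SD, n = 3 each). KLA versus DMSO called all 3 genes lower (log2 changes −0.62, −0.56 and −0.62 for KIF13A, EIF3A and ERAP1, edgeR adjusted p = 0.00911, 0.00814 and 0.0109). DexKLA versus DMSO called KIF13A and EIF3A lower (−0.45 and −0.41, adjusted p = 0.046 and 0.030) and not ERAP1 (−0.37, adjusted p = 0.126). Dex versus DMSO called none of them (−0.46, −0.38 and −0.44, adjusted p = 0.0593, 0.054 and 0.0915), and the interaction called none. They were chosen for this likeness, so their pattern is a description. The rows kept of KIF13A, EIF3A and ERAP1 are 7056, 6633 and 4820 bases long, and the part of the length trend in their likeness was not tested.

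Around the kinase, a list of 71 genes of the cAMP pathway was followed, of which 69 were in the table (G6PC1, another symbol of G6PC, and POPDC1 were not found) and 48 were tested. With Dex 0 rose and 3 fell against DMSO (6.25% of the 48 lower, beside 0.835% of all tested genes lower), with KLA 0 rose and 8 fell (16.7% beside 5.94%), and with DexKLA 0 rose and 2 fell (4.17% beside 1.38%). Between DexKLA and KLA 1 rose and 0 fell, and for DexKLA versus Dex and the interaction 0 were called. The median log2 change of the 48 was −0.15, −0.23 and −0.08 with Dex, KLA and DexKLA against DMSO, beside −0.01, −0.02 and −0.02 over all tested genes. The calls depended on single libraries: without DMSO replicate 1, 0 of the 48 were called in each comparison with DMSO, and the same held without Dex replicate 2 for Dex versus DMSO and without DexKLA replicate 1 for DexKLA versus DMSO. With depth class as a covariate every call among the 48 ended except that of PCK1 with Dex.

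Upstream of the kinase, none of the 6 tested receptors and G protein genes was called in any comparison, and the hormone receptor genes GCGR, ADRB1 and VIPR1 had at most 4 counts in any library and were not tested. Of the 10 adenylyl cyclases, which make cAMP, 5 were tested and 1 was called. ADCY9 averaged 36.1 ± 4.27 CPM in DexKLA, 30.2 ± 2.65 in Dex, 30.7 ± 8.87 in KLA and 52.1 ± 9.05 in DMSO (SD, n = 3 each), and fell with Dex (log2 −0.80 ± 0.18, edgeR adjusted p = 0.0247) and KLA (−0.76 ± 0.17, adjusted p = 0.0113). With DexKLA its change of −0.51 missed the threshold (adjusted p = 0.0945). The Dex call of ADCY9 also ended without DMSO replicate 1 or 2 and without Dex replicate 2 or 3 (−0.91 to −0.67 over all 12 fits), and the KLA call without DMSO replicate 1 (−0.96 to −0.54). None of the 8 tested phosphodiesterases, which break cAMP down, was called, nor was either tested inhibitor gene, PKIB or PKIG. The median log2 change of these 2 inhibitor genes was 0.82 with Dex, 0.89 with KLA and 0.73 with DexKLA against DMSO. PKIB had at most 44 counts in any library and PKIG at most 1202. The inhibitor PKIA and the related kinases PRKX and PRKACG had at most 4 counts.

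The 11 anchoring protein genes, whose products hold PKA in place, were all tested. With KLA 3 of them fell against DMSO. AKAP1, which tethers PKA to mitochondria, averaged 122 ± 11.2 CPM in KLA and 160.4 ± 16.2 in DMSO (log2 −0.40 ± 0.11, edgeR adjusted p = 0.0218), AKAP13 averaged 13.2 ± 3.18 and 20.6 ± 1.37 CPM (−0.64 ± 0.18, adjusted p = 0.0257), and EZR, the gene of the cytoskeletal linker ezrin, averaged 61.9 ± 5.29 and 78.7 ± 5.03 CPM (−0.34 ± 0.11, adjusted p = 0.0408). Each of the 3 calls ended without DMSO replicate 1. That of AKAP1 also ended without DMSO replicate 3 or KLA replicate 3 (−0.46 to −0.32 over all 12 fits), that of AKAP13 without DMSO replicate 2 or 3, KLA replicate 3 or with the length trend removed (−0.80 to −0.45), and that of EZR in 7 of 12 fits, without any 1 of the DMSO libraries, Dex replicate 1 or 3, or KLA replicate 1 or 2 (−0.40 to −0.28), and with no filter on low counts. AKAP12, a large scaffold of PKA and protein kinase C, averaged 151 ± 26.9 CPM in DexKLA and 93.5 ± 10.0 in KLA and was higher in DexKLA (0.69 ± 0.14, adjusted p = 0.0196). That call ended without KLA replicate 2, without DexKLA replicate 2 or 3 (0.56 to 0.82 over all 12 fits), with the length trend removed (0.50, adjusted p = 0.072) and in the deeper libraries alone.

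Among the nuclear factors, all 8 of which were tested, 1 fell with Dex, 2 with KLA and 1 with DexKLA against DMSO, and CREB1 itself was not called in any comparison. CREB3L3, a liver-enriched relative of CREB, averaged 10.4 ± 1.18 CPM in DexKLA, 11.4 ± 1.03 in Dex, 11.5 ± 1.78 in KLA and 19.4 ± 5.48 in DMSO. It fell with Dex (log2 −0.74 ± 0.19, edgeR adjusted p = 0.0492), KLA (−0.72 ± 0.18, adjusted p = 0.015) and DexKLA (−0.88 ± 0.19, adjusted p = 0.0157). The Dex call ended in 7 of the 12 fits, without DMSO replicate 1 or 3, any 1 of the Dex libraries, KLA replicate 1 or DexKLA replicate 2 (−0.89 to −0.51), and with DESeq2's size factors or the shallower libraries alone. The KLA call ended without DMSO replicate 1 or KLA replicate 3 (−0.87 to −0.49), and the DexKLA call without DMSO replicate 1 or DexKLA replicate 1 (−1.03 to −0.65) and in the shallower libraries alone. CRTC3, a CREB coactivator, averaged 9.58 ± 1.53 CPM in KLA and 13.8 ± 2.05 in DMSO (−0.52 ± 0.17, adjusted p = 0.049), a call held in 3 of the 12 fits, those without DMSO replicate 2, KLA replicate 2 or DexKLA replicate 3 (−0.65 to −0.39), and not made by the DESeq2 test (adjusted p = 0.0512), with DESeq2's size factors, with no filter or with the length trend removed (adjusted p = 0.125).

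Of the 12 symbols listed as cAMP response genes of liver, 8 were tested, and the gluconeogenic genes PCK1 and G6PC fell. PCK1, which encodes phosphoenolpyruvate carboxykinase, averaged 28.6 ± 7.42 CPM in DexKLA, 29.4 ± 5.32 in Dex, 31.3 ± 4.14 in KLA and 56.2 ± 16.9 in DMSO (SD, n = 3 each). It fell with Dex (log2 −0.96 ± 0.20, edgeR adjusted p = 0.0134), KLA (−0.83 ± 0.19, adjusted p = 0.0109) and DexKLA (−0.997 ± 0.20, adjusted p = 0.00838). G6PC, which encodes the catalytic subunit of glucose-6-phosphatase, averaged 67.5 ± 7.71 CPM in DexKLA, 76.1 ± 6.14 in Dex, 41.6 ± 8.87 in KLA and 90.3 ± 30.5 in DMSO and fell with KLA (−1.10 ± 0.18, adjusted p = 0.00675). The PCK1 calls ended without DMSO replicate 1 in all 3 comparisons, and also without Dex replicate 2 for Dex (−1.149 to −0.72 over all 12 fits) and without DexKLA replicate 1 or in the shallower libraries alone for DexKLA (−1.19 to −0.76 over the 12 fits), and the KLA changes ranged from −1.03 to −0.59. The G6PC call ended without DMSO replicate 1 (−1.33 to −0.84). PPARGC1A, NR4A1, SIK1, TAT, IGFBP1 and PER1 were tested and not called in any comparison, and NR4A2, NR4A3 and FOS did not pass the filter on low counts. The other cAMP receptors, RAPGEF3, RAPGEF4, POPDC2 and POPDC3, had at most 14 counts in any library.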

How the data were processed

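RNA-seq was done on 12 libraries of HepG2 cells, 3 per group. The authors deposited 1 table of estimated counts per RefSeq transcript row, in steps of 0.5, with 32.6% to 36.4% of a library's values not whole. Estimated here means only that values are not all whole, and how reads shared between rows were counted is not stated. Summed over all rows, DMSO replicate 1 held 10212964 counts, beside 3317740 with 1 row kept per symbol. The near-equal long rows of PRKAR1A look like the same reads counted in full in each row. Trimmomatic, BWA 0.7.17, HOMER 4.10 and hg38 are named, without roles, per the submitters' processing notes, and the strand setting is not given in the sources used here.

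Values were rounded to whole numbers. The 406 rows without a symbol (1.71% to 2.55% of a library's total) were left out, and 1 row per symbol was kept, that with the highest total, which mattered for 12552 of 28256 symbols with several rows. The filter of edgeR at a minimum count of 10 left 13166 genes. After TMM scaling, 1 quasi-likelihood model over the 4 groups (edgeR 4.0.16, R 4.3.3, 8 residual degrees of freedom before moderation) gave each comparison and the interaction, with Benjamini-Hochberg adjustment over all tested genes and a threshold of 0.05. Standard errors were taken as the absolute log2 change divided by the square root of F. CPM values use TMM-scaled totals, and the floor for a count of 0 (3 counts) covers counting error only.

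Named genes were the 6 members, the PRKAR1A rows, every called gene of the pathway list (at most 5 per role by smallest p) and the 3 genes most like PRKAR1A. The members and lists were chosen with earlier results of these data known. Genes with values named outside that rule, such as cell markers and untested receptors, are descriptions, and some listed genes are not reported here. Alternatives were DESeq2's size factors and test (1.42.0), no filter, the longest row, a replicate block, removal of each library's trend on transcript length, depth class as a covariate and leaving out each library. The 6 shallower or 6 deeper libraries alone, and all alternatives for the pathway list, were added after seeing the data. The code was tested on simulated data. The closest replicates, DMSO 2 and 3, still differed by more than counting noise (chi-square per degree of freedom 1.87). Promoters are from RefSeq (GRCh38.p14), and overlapping genes from GENCODE.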

Additional observations from a re-analysis of the deposited data

Results flagged for a closer look

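In the reported fit, the change of PRKAR1A with Dex differed between cells with and without KLA, by a call close to the threshold. It was 0.23 ± 0.11 on the log2 scale with KLA (DexKLA against KLA) and −0.59 ± 0.11 without it (Dex against DMSO), and the difference, 0.82 ± 0.15, passed the test of the interaction (edgeR adjusted p = 0.0449). The interaction uses the same DMSO libraries as the comparisons with DMSO and is not independent of them. All KLA libraries were deeper than all DMSO libraries, and depth and KLA cannot be told apart. The call ended in 7 of the 12 fits that left out 1 library, with a range of 0.77 to 0.90 (adjusted p = 0.0266 to 0.198).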

How the results depend on the processing

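PRKAR1A kept its direction against DMSO in every alternative run, and its calls with Dex and DexKLA held under all of them that kept every library. Leaving out 1 library gave −0.67 to −0.54 with Dex, −0.85 to −0.73 with KLA, −0.62 to −0.49 with DexKLA and 0.77 to 0.90 for the interaction. Subunits called then numbered 0 to 1 with Dex, 0 to 2 with DexKLA and 0 to 1 for the interaction. Genes called numbered 56 to 915 with Dex, 5 to 2363 with KLA, 48 to 1461 with DexKLA, 52 to 94 for DexKLA against KLA and 0 to 681 for the interaction, and the cause was not tested.
PRKACA for DexKLA against DMSO ranged from −0.66 to −0.22 and was called once. Other uncalled values changed sign when 1 library was left out: PRKAR2A −0.063 to 0.053 for DexKLA against DMSO, PRKACA −0.35 to 0.10 and PRKACB −0.27 to 0.15 for DexKLA against KLA, PRKACB −0.19 to 0.21 for DexKLA against Dex, and PRKACA −0.21 to 0.24 and PRKACB −0.045 to 0.39 for the interaction.
With DESeq2's size factors the interaction called 0 genes and 0 subunits (PRKAR1A 0.81, adjusted p = 0.0561). The DESeq2 test called 656 genes with Dex, 927 with DexKLA and 664 for the interaction, and it gave no adjusted p for PRKACB in some comparisons. Without a filter 909 genes were called with Dex, 987 with DexKLA, 204 for DexKLA against KLA, 12 for DexKLA against Dex and 1040 for the interaction. With the length trend removed 1064 genes were called with KLA and 2 for the interaction, with 0 subunits (PRKAR1A 0.69, adjusted p = 0.0982), and PRKAR2A with KLA turned to 0.020. With depth class as a covariate 129 genes were called with Dex, 4 with KLA, 173 with DexKLA and 0 for the interaction, and 0 subunits with KLA (PRKAR1A −0.80, adjusted p = 0.0905) and for the interaction (0.84, adjusted p = 0.153). Signs turned there for PRKAR2A with DexKLA (−0.019) and, for DexKLA against KLA, PRKACA (0.033) and PRKACB (0.0060).
The shallower libraries alone, with a lone DexKLA library assumed to vary like the other groups, called 491 genes with Dex and 902 with DexKLA, with 2 subunits called with DexKLA (PRKACA −0.78, adjusted p = 0.0185). PRKAR2A with DexKLA was −0.052 there, and for DexKLA against Dex PRKAR1A was −0.078 and PRKACB −0.67. The deeper libraries alone called 16 genes for DexKLA against KLA, with PRKACA at 0.087 and PRKACB at 0.12. Comparisons with no library of a group in a depth class could not be fitted.
Replicate numbers showed no clear pairing of the samples: over 18 same-numbered pairs the correlation of deviations was −0.31 to 0.17, and 1 exceeded 0.1. These deviations also hold differences in depth and length trend, so they cannot settle whether same-numbered libraries were handled together. With the replicate block 134 genes were called with Dex, 325 with DexKLA and 0 for the interaction, with 0 subunits (PRKAR1A 0.82, adjusted p = 0.0951), and PRKACB for DexKLA against Dex was −0.036. The block also ended the calls of CREB3L3 with Dex and of EZR and CRTC3 with KLA. Depth limits PRKACB (22 to 162 counts) and PRKAR2B (at most 10 counts).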
